A study of Zea mays with 27 samples.

Results

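The acidic P proteins of the ribosomal stalk and 2 other ribosomal proteins were represented by 31 spots of 5 genes, out of 1607 spots of 532 genes that the platform's gene table ties to 1 gene. The spots were chosen by gene identifier. They were LOC542323 (rpp2, 18 spots), LOC542340 (rpp2b, 2 spots), LOC542339 (rpp3, 7 spots), LOC542617 (rps27, 2 spots) and LOC541668 (rpl30, 2 spots). The genes had been picked with earlier values of these arrays in view, so their values are a description and carry no test.

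The arrays were 2-colour cDNA microarrays of maize (Zea mays) seedlings, from a study of heterosis in the inbred lines B73 and Mo17 and their F1, made with Mo17 as the seed parent. Per the labels, above-ground tissue was harvested at 14 days and RNA came from pools of 6 seedlings per genotype and replication. The design text describes 10 replications, of which 9 were kept with 3 arrays each, giving 27 arrays (S1 to S27) that compared B73, Mo17 and the F1 pairwise, with the dyes alternated. The values are those of a low scan, per the series title. The labels used here name a genotype on 1 channel of S1 (F1, Cy3) and on no other channel. None of the 27 arrays could therefore be placed in a group, and no value below compares genotypes.

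The ribosomal stalk is a flexible arm of the large ribosomal subunit. Its base is the protein P0, which carries dimers of small acidic proteins, and the shared acidic tail of these proteins recruits and stimulates the GTPases of translation. P1 and P2 are the acidic stalk proteins of all eukaryotes, encoded here by rpp1a, rpp2 and rpp2b, and P3, encoded by rpp3, is a form known from plants. The gene rps27 encodes a zinc-finger protein of the small subunit and rpl30 a protein of the large subunit, which in yeast also binds its own transcript.

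Each value was a log ratio between the 2 channels of an array, put on the log2 scale and centred on that array's median. Which channel was the numerator is not stated, so signs are read only as above or below the array median. Ratios hold no level of expression, and the labelled tissue could not be checked against marker genes. The spread of a spot was the gap between the 10th and 90th percentiles of its 27 values. Whether separate spots of a gene moved together from array to array was described by Pearson's r and Spearman's rho. The product of 2 spots on the same array does not depend on the numerator, so a correlation through the origin, which removes no mean, does not change when an array is turned round. Such a correlation was computed for the members only. Arrays of a replication share RNA, so they are not independent samples and correlations are given without p-values.

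Arrays differed in the width of their ratios, with interquartile ranges over all 18303 probes from 0.40 (S9) to 1.57 (S19). On S27, spots 7601 to 8000 in table order stood apart. Their median was 3.33 and 56.9% of them lay at least 4 (16-fold) from the array median, against a median of 1.30% and a highest share of 40.6% over the other 47 runs of 400 spots. The run that holds rpp2 spot 10442, with 34.3%, was also wide on S27. Main results that S19 or S27 move are given with and without them. The arrays S1 to S15 each had a single value shared by at least 2% of spots and S16 to S27 had none, so values within these sets of 15 and 12 arrays are given for the main results.

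The members ranged from spots that stayed close to the array median to spots that crossed it by many-fold. Of the 31 spots, 17 (54.8%) had a spread of at least 1 (2-fold), against 65.0% of the probes with 1 gene and 79.2% of all probes. The genes were picked on these values, so nothing is read from that difference. With each run of 400 spots centred on its median, 10 of the 31 reached a spread of 1. The share of other probes after such centring was not computed, so that count has no background here. The median spread of the 31 was 1.03, against 1.17 over probes with 1 gene and 1.54 over all probes. By gene, the median was 0.92 for rpp2, 1.05 for rpp2b, 1.19 for rpp3, 0.999 for rps27 and 2.86 for rpl30. A spread of 2 was reached by 4 spots, namely 2 of rpp2, 1 of rpp3 and 1 of rpl30. The narrowest of these, spot 11422 of rpp2, ranked 279 from the widest among the 1607 probes with 1 gene. The spots nearest the 2-fold limit were those of rpp2b and rpp2 with 0.97 and 0.98 on the lower side and those of rpp2 and rpp3 with 1.03 each on the upper side.

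**Figure D1:**
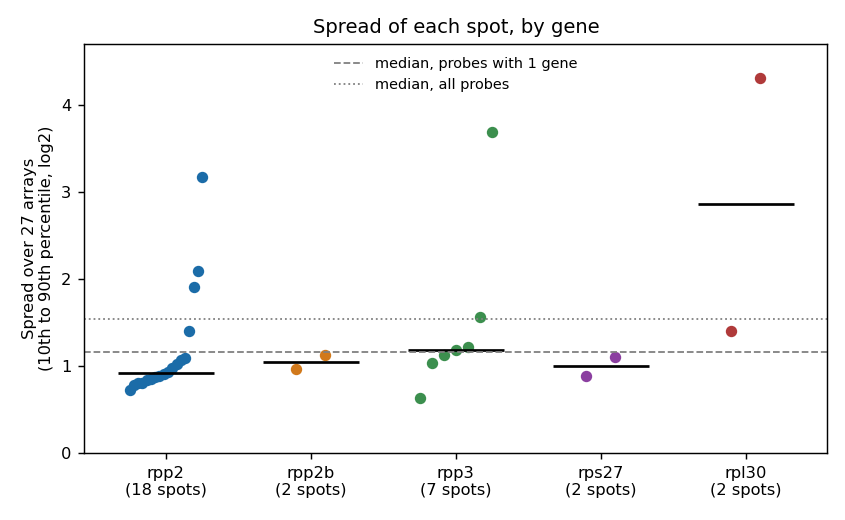
Spread of each of the 31 spots over 27 arrays (log2, vertical axis), by gene; black bars are gene medians and the dashed and dotted lines the medians of probes with 1 gene (1.17) and of all probes (1.54). Of the points, 21 of 31 lie below the dashed line, with single spots of rpp2 (3.18), rpp3 (3.69) and rpl30 (4.31) far above it.

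The rpp2 gene, which encodes a P2 protein, had the most spots. Of its 18 spots, 14 had a spread under 1.1, from 0.73 (spot 4949) to 1.09 (spot 4175). Spot 4949 ran from -0.76 (S12) through a median of -0.08 to 0.43 (S19) and never reached 2-fold from the array median. The other 4 spots had 1.41 (spot 17422), 1.92 (spot 1646), 2.10 (spot 11422) and 3.18 (spot 7831). Spot 7831 ran from -0.73 (S1) through a median of 0.53 to 8.82 (S27), with 8.24 on S2 and 5.08 on S3. Its spread was 3.90 over S1 to S15 alone, against 1.38 over S16 to S27, and that of spot 11422 was 2.83 against 1.14. Spots 7618, 7797 and 7831 had 9.84, 8.67 and 8.82 on S27, and all 3 lie in the run of spots that stood apart there. On the other 26 arrays, spots 7618 and 7797 stayed between -0.96 and 0.79. Spot 17422 lay below the array median on 23 of 27 arrays, with a median of -0.48, while the medians of 8 of the 18 spots were below 0 and 10 above.

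**Figure D2:**
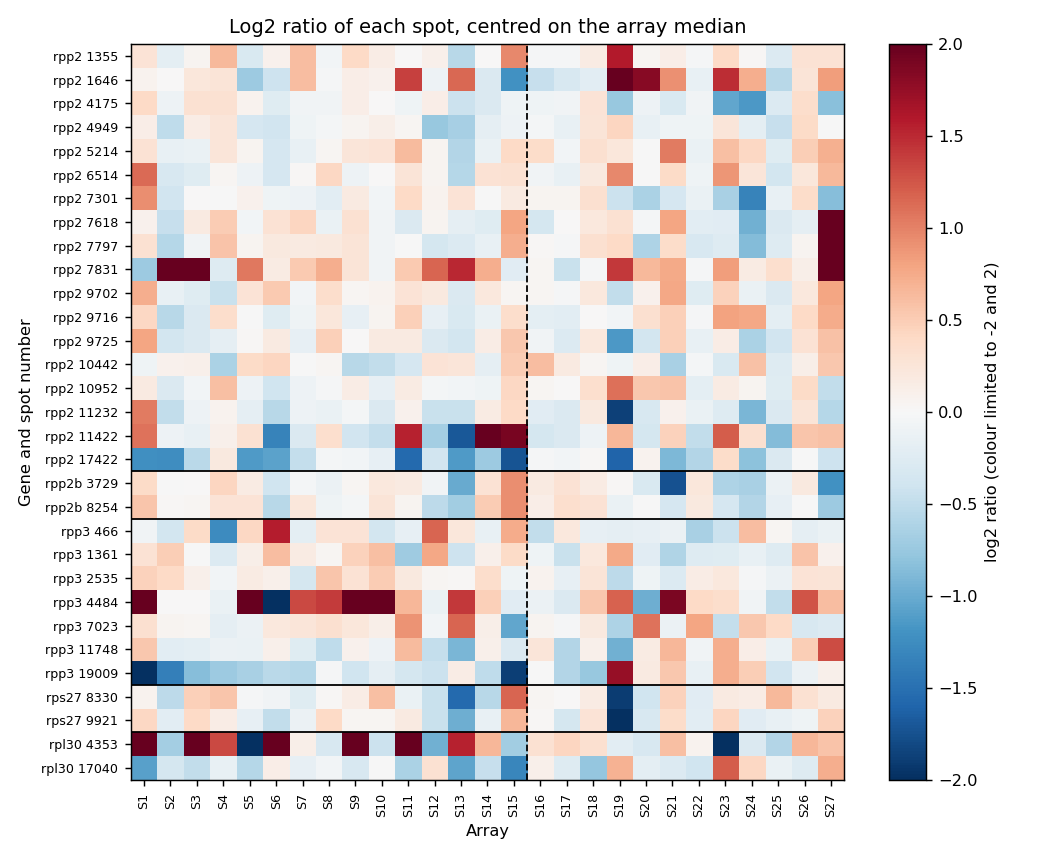
Log2 ratio of each spot (rows, by gene and spot number) on each array (columns), centred on the array median and coloured from -2 (blue) to 2 (red); the dashed line parts S1 to S15 from S16 to S27. The strong colours lie in a few rows, such as rpp2 7831, rpp3 4484 and rpl30 4353, and for rps27 in S13 and S19.

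On some arrays the rpp2 spots shared a side of the array median. On 6 of 27 arrays at least 15 of the 18 spots did, a limit chosen after the values were seen. The same count was not computed for other genes, so it has no background here. On S22 all 18 lay below, between -0.58 and -0.02, and on S25 17 lay below, with a median of -0.28. On S26 16 lay above, with a median of 0.27, and on S1 and S18 15 did, with medians of 0.30 and 0.21. On S2 15 lay below, with a median of -0.30. These shifts were small, and the median over the 18 spots stayed within 0.5 of the array median on 26 of 27 arrays, with 0.58 on S27. Centring each run of 400 spots on its own median left 1 spot of 18 above on S22, 1 on S25 and 2 on S2, and 15 above on S26. S1 and S18 then had 14 above, short of the limit. S16 and S17, with 3 and 2 above, reached it on the lower side. The number of arrays at the limit stayed at 6, but they were not the same arrays.

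**Figure D3:**
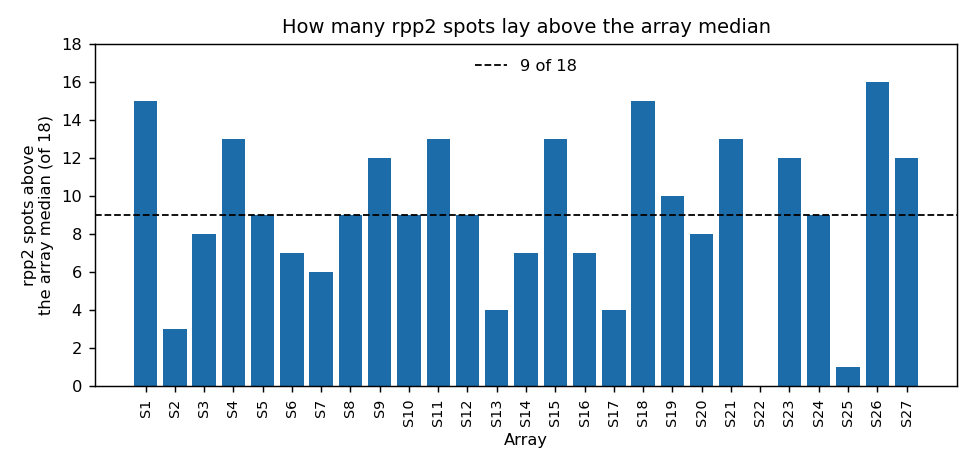
Number of the 18 rpp2 spots above the array median (bars) on each of the 27 arrays, with a dashed line at 9. The bars reach 16 on S26 and 15 on S1 and S18, and stand at 1 on S25 and 0 on S22.

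Spots of ribosomal protein genes other than the members leaned the same way on all of these arrays but S1. Of the 47 spots of 11 other ribosomal protein genes, 34 lay above the median on S18 (72.3%) and 35 on S26 (74.5%), while 11 did on S22 (23.4%) and 5 on S25 (10.6%). On S1 the share was 48.9% and on S2 it was 31.9%, against 42.0% and 45.4% of all probes with 1 gene. Over all probes with 1 gene the share above on S18, S26, S22 and S25 was 57.5%, 55.1%, 45.8% and 50.6%. Spots of translation factor genes, which share the process but not the ribosome's structure, gave 54.6% on S18, 49.5% on S26, 40.2% on S22 and 34.0% on S25. The other members were mixed. Their medians on S22 were 0.21 for rpp2b, -0.06 for rpp3, -0.22 for rps27 and -0.17 for rpl30. On S25 they were -0.14, -0.13, 0.25 and -0.36 in the same order. On S18 they were 0.22, 0.19, 0.22 and -0.23, and on S2 0.01, 0, -0.37 and -0.52. On S1 and S26 all of them were above 0. These arrays were picked for their rpp2 values, and the difference between the lists was not tested.

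The rpp2 spots nonetheless moved together only loosely over the arrays. Over their 153 pairs the mean r was 0.126 (mean rho 0.184), with 60 pairs below 0 and 21 above 0.5. The mean over the 259 genes with at least 2 spots had a median of 0.0848, and over the 44 genes with at least 7 spots it was 0.150 with quartiles of 0.0946 and 0.212, which enclose the rpp2 value. Of the 18 spots, 13 correlated positively on average with the rest, up to 0.281 (spot 6514), and spot 10442 had the lowest mean, -0.106. The 7 pairs that lie in the same run of 400 spots had a mean r of 0.593 and the other 146 pairs 0.104. Without S27 these were 0.301 and 0.121. Through the origin, the mean over the 153 pairs was 0.116.

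Some rpp2 spots in different runs of the table followed each other closely. Spots 4175 and 7301 had r = 0.787 (rho 0.648), with 0.334 over S1 to S15 and 0.886 over S16 to S27. Spots 9725 and 11232 had 0.759 (rho 0.588), and both were lowest on S19, at -1.14 and -1.86. Spots 5214 and 9716 had 0.755 (rho 0.819), and spots 6514 and 11422 had 0.699 (rho 0.813). These pairs were picked from the 153 for their size. Spots 7618, 7797 and 7831, by contrast, lie in the same run. Spots 7618 and 7797 had r = 0.992, which was 0.815 without S27. Spot 7831 had 0.605 with 7618, which was -0.187 without S27. In the opposite direction, spots 1646 and 4175 had r = -0.477.

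The rpp2b gene encodes a second form of P2, and its 1 pair of spots had a higher r than the mean over the 153 rpp2 pairs. Of those rpp2 pairs, 21 were above 0.5. Spot 3729 ran from -1.74 (S21) through a median of 0.02 to 0.92 (S15), and spot 8254 ran from -0.73 (S27) through 0.03 to 0.93 (S15). S27, S13 and S24 were among the 4 lowest arrays of both spots, with -1.21, -1.01 and -0.65 for spot 3729 and -0.73, -0.70 and -0.58 for spot 8254, and S15 was the highest of both. Their r was 0.812 (rho 0.875), and the correlation through the origin was 0.801. That r ranked 2 of 259 genes, nearly level with pdh2 (LOC541700), which also had 0.812. The ranking sets single pairs beside means over many pairs. Genes with 2 spots had a median r of 0.0401, with quartiles of -0.121 and 0.232. Without S27, rpp2b had 0.781 and pdh2 0.810. The rpp2b spots lie in different runs of spots, and their r was 0.918 with each run centred, 0.896 over S1 to S15 alone and 0.792 over S16 to S27.

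The rpp3 gene encodes the plant P3 protein, and its 7 spots did not move as 1 group. Their spreads ran from 0.64 (spot 2535) to 1.57 (spot 19009), apart from spot 4484 with 3.69. Spot 2535, the steadiest of the 31, ran from -0.52 (S19) through a median of 0.10 to 0.55 (S8). Spot 4484 ran from -2.89 (S6) through 0.47 to 6.23 (S5), with 5.06 on S9 and 5.44 on S10. On 5 arrays its value was shared exactly with at least 2 other spots of the array, which 83.3% of probes with 1 gene never showed. Over S1 to S15 alone it had a spread of 5.47, and over S16 to S27 alone 1.72. The mean r over the 21 pairs of rpp3 spots was -0.0189 (mean rho 0.024), from -0.448 to 0.348, and 13 pairs were below 0. Through the origin the mean was -0.0115. With each run of spots centred the mean was 0.105.

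The spots of rps27, the small subunit member, had the highest r of the 259 genes with at least 2 spots, over all arrays as centred here. Spot 9921 ran from -2.27 (S19) through a median of -0.08 to 0.66 (S15), and spot 8330 ran from -1.89 (S19) through 0.04 to 1.17 (S15). Both were lowest on S19, next lowest on S13 (-0.98 and -1.56) and highest on S15. Their r was 0.831 (rho 0.686), and 0.828 through the origin. It was 0.727 without S19, 0.823 over S1 to S15 alone and 0.896 over S16 to S27. The order of rps27 and rpp2b turned in several settings: rpp2b had 0.817 without S19, and with each run centred rps27 had 0.777 against 0.918 for rpp2b. The genes with 2 spots had a median r of 0.0401, with quartiles of -0.121 and 0.232.

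The rpl30 gene had the opposite pattern, since its spots differed in width and did not move together. Spot 4353 ran from -5.57 (S5) through a median of 0.31 to 5.01 (S9) and lay at least 2-fold from the array median on 9 arrays. Its value was shared with at least 2 other spots on 6 arrays. Over S1 to S15 alone it had a spread of 4.87, and over S16 to S27 alone 1.17. Spot 17040 ran from -1.31 (S15) through -0.25 to 1.21 (S23), with a spread of 1.41. The r of the pair was -0.216 (rho -0.288), which ranked 242 of 259 genes, and it was -0.275 through the origin, -0.034 over S1 to S15 and -0.600 over S16 to S27. The median of 2 spots is their mean, so the wider spot 4353 weighs more in the gene's profile.

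Of the 3 members latest in the table, looked at after their values were seen, 2 leaned with their neighbours. Spot 17040 of rpl30 and spot 19009 of rpp3 each lay below the array median on 20 of 27 arrays, with medians of -0.25 and -0.38. In their runs of 400 spots 79.2% and 90.4% of probes had medians below 0, and after each run was centred the medians of both spots were within 0.01 of 0. These spots had r = 0.693 (rho 0.581) with each other, which was 0.132 after such centring. For spot 17422 of rpp2 the run had 54.7% of probes below 0, and its own median stayed at -0.46 after centring.

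**Figure D4:**
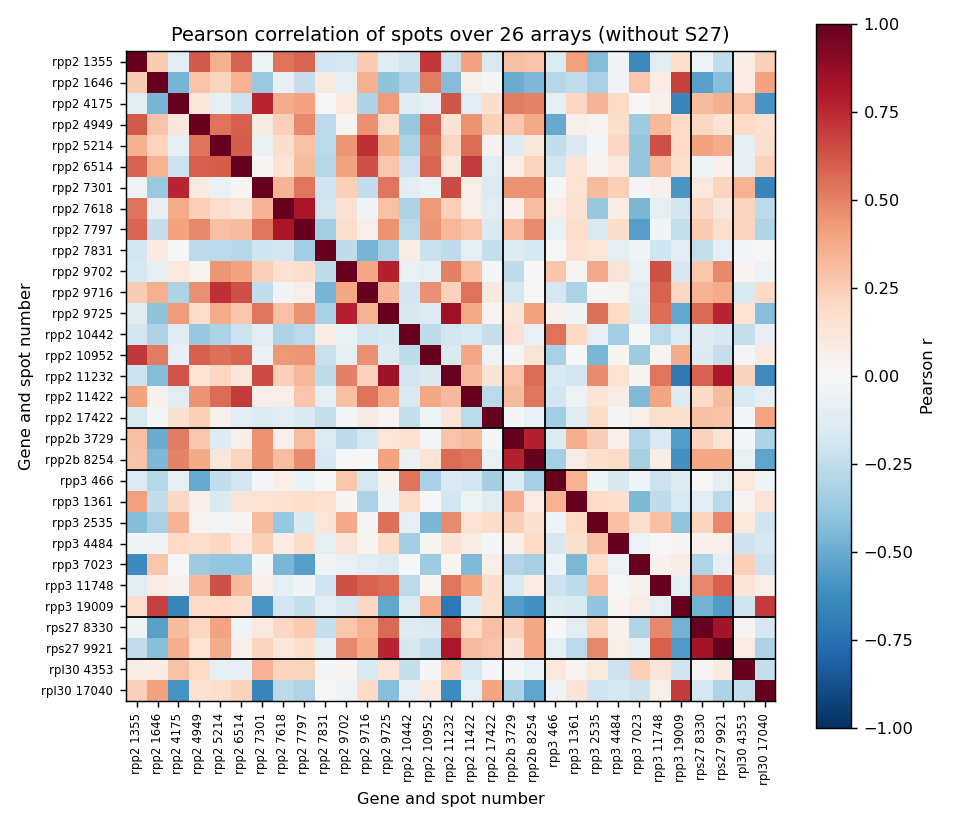
Pearson correlation over 26 arrays (S27 left out) between all 31 spots, ordered by gene and spot number, from -1 (blue) to 1 (red); black lines part the genes. The rpp2b and rps27 squares are red throughout, whereas the rpp2 square is mixed and the rpp3 square pale.

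As genes, the acidic P proteins had low correlations with each other over the 27 arrays as centred here. The mean of the 3 values was -0.0283, and it was 0.281 without centring and 0.126 with arrays rescaled to a common width. With each gene's profile taken as the median over its spots, r was -0.0258 (rho 0.032) between rpp2 and rpp2b, 0.0956 (rho 0.183) between rpp2 and rpp3, and -0.155 (rho -0.118) between rpp2b and rpp3. Over all 33411 pairs of the 259 genes the median r was 0.0235 and the 10th and 90th percentiles were -0.311 and 0.379, and all 3 values lay between these percentiles. Through the origin the 3 values were -0.0516, 0.144 and -0.175. In all, 10 pairs among the 5 genes were computed. Without S27 and S21, the arrays farthest from the median of rpp2, the rpp2 and rpp2b profiles had r = 0.460, and without S27 alone 0.191. The rpp2 and rpp3 profiles had r = -0.0801 over S1 to S15 and 0.393 over S16 to S27.

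The correlation between rpp2 and rpp2b had opposite signs in the sets of arrays. Within S1 to S15 r was 0.759 (rho 0.561), from 0.670 to 0.817 with 1 array left out, and it was 0.529 without S15 and S13. Within S16 to S27 it was -0.585 (rho -0.545), from -0.690 to -0.415 with 1 array left out. It was -0.496 without S27 and S25, the arrays farthest from the median of rpp2 in that set, and -0.0881 without S21 and S27, a pair chosen after their values were seen. On S21 and S27 the rpp2 profile was at 0.42 and 0.58 and the rpp2b profile at -1.04 and -0.97. The rpp2b spots differed on S21, with -1.74 for spot 3729 and -0.34 for spot 8254. On S27 they were at -1.21 and -0.73. The difference between the sets was not tested.

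The rps27 profile had r = 0.334 (rho 0.542) with rpp2, which 13.2% of all gene pairs reached. It was 0.666 without S19, where rps27 was at -2.08 and rpp2 at 0.27, and 0.269 without S27 and S21. The rpp2 spots were divided on S19, with 10 above and 8 below the array median, from -1.86 to 2.11. The signs of the profiles matched on 20 of 27 arrays. Within S1 to S15 r was 0.775 (rho 0.689), from 0.698 to 0.827 with 1 array left out, and 0.579 without S15 and S13. Within S16 to S27 it was 0.0485 (rho 0.510), with 0.613 without S19, -0.0778 without S27 and -0.257 without S21 and S27. With rpp2b, rps27 had r = 0.221 (rho 0.168), which was 0.794 over S1 to S15 alone and -0.291 over S16 to S27, and 0.397 and -0.0508 without the 2 arrays of each set farthest from the median of rpp2b. Over all arrays but S21 and S27 it was 0.451. With rpp3, rps27 had r = 0.127 (rho 0.0739), which was -0.0686 without S19, -0.202 over S1 to S15 and 0.423 over S16 to S27. Through the origin, rpp3 and rps27 had 0.0998 over all arrays. Which stalk gene rps27 followed most thus changed with the arrays used.

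**Figure D5:**
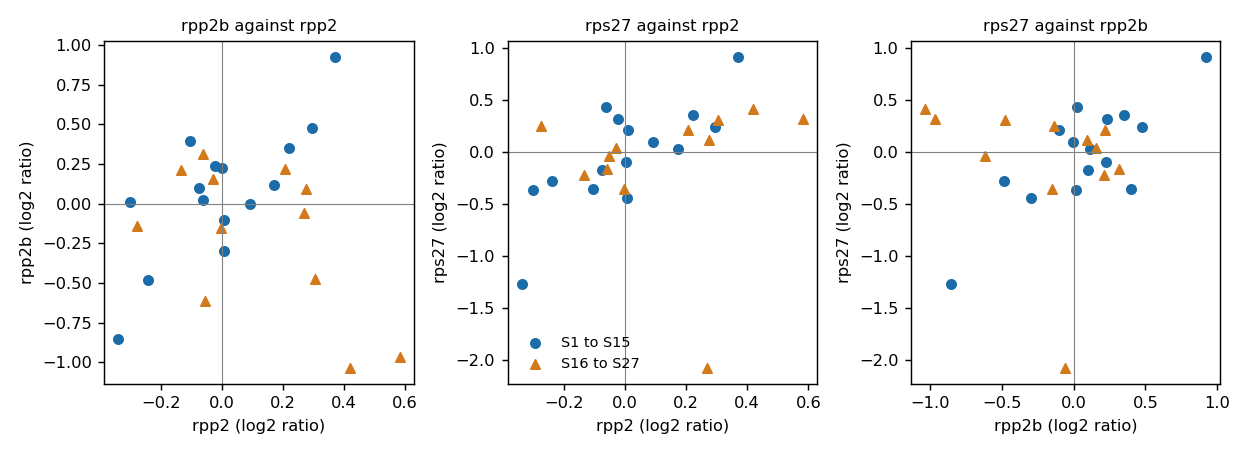
Gene profiles (median log2 ratio over spots) of rpp2b against rpp2, rps27 against rpp2 and rps27 against rpp2b, 1 point per array, with circles for S1 to S15 and triangles for S16 to S27. The circles run up to the right in each panel (r from 0.759 to 0.794), the triangles run down in the left one (r = -0.585), and S19 lies alone at the bottom for rps27.

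Pairs of an rps27 and an rpp2 spot differed widely, and those named here were picked for their size. Spot 9921 of rps27 had r = 0.772 (rho 0.716) with spot 9725 of rpp2, in the same run, and 0.759 (rho 0.611) with spot 11232 of another run. Without S19 these were 0.666 and 0.515, and with each run centred 0.525 and 0.398. Over all 36 pairs of an rps27 and an rpp2 spot the median r was 0.204, from -0.523 to 0.772, with 26 above 0.

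The rpl30 profile had low correlations with the other members. Its r was 0.0324 (rho 0.083) with rpp2, -0.181 (rho -0.107) with rpp2b and 0.208 (rho 0.239) with rpp3, and 0.00688 (rho 0.063) with rps27. All 4 lay between the 10th and 90th percentiles of all gene pairs. Through the origin the rpl30 profile had 0.0638, -0.194, 0.232 and -0.00748 with the same genes. Within S16 to S27 its r with rpp2 was 0.541, and without S27 and S21 over all arrays it was -0.0195.

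The stalk's other proteins were set beside the members. P0 (LOC542454), the base of the stalk, was added after the gene names were seen. Its 9 spots had a median spread of 0.88, with 4 of at least 1 and a highest of 2.20, and a mean r among themselves of 0.245. The 3 spots of rpp1a (LOC542719), a P1 protein, had spreads from 0.69 to 0.91, the lowest median of the ribosomal protein genes here (0.73), and a mean r of 0.0894, which was 0.268 without S27. The P0 profile had r = 0.332 (rho 0.317) with rpp2, 0.208 (rho 0.181) with rpp2b and 0.421 (rho 0.419) with rpp3. The rpp1a profile had 0.283 (rho 0.491), 0.428 (rho 0.400) and 0.248 (rho 0.257) with the same genes, and 0.327 with P0. All 6 values with the acidic P genes were above 0, as were 53.4% of all gene pairs. They varied with the arrays: rpp1a with rpp2 had r = 0.667 over S1 to S15 and 0.062 over S16 to S27, and P0 with rpp3 had 0.231 and 0.670.

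A list of 11 other ribosomal protein genes, found by symbol and including rpp1a, was set beside the members. It does not hold P0, whose symbol the search did not match, and its genes RPS10 and RPS21 have 1 spot each. The 47 spots of the list had a median spread of 0.96, with 20 (42.6%) of at least 1. The gene medians ran from 0.73 to 1.28 (RPS21, a small subunit protein). Translation factors had a median of 0.97 over 97 spots of 12 genes, with 43 (44.3%) of at least 1. Of the 11 genes, 8 had a positive r with the mean profile of the 3 acidic P genes. The median was 0.348, against -0.0321 over the 254 genes with at least 2 spots that are no members, of which 48.0% were positive. The highest were RPL19 with 0.730 (rho 0.741), rpl17 with 0.616 (rho 0.575) and rpp1a with 0.586 (rho 0.644), all large subunit proteins, and the lowest rpl39 with -0.138. With the rps27 profile the 11 had a median r of 0.273, against 0.0332 over the 254 genes. Of the 11, 9 were positive, but the share of the 254 genes that were was not computed. The highest were rps6 with 0.657, of the small subunit, and RPL10 with 0.627, of the large one, while the small subunit genes RPS10, rps13 and rps6-2 had 0.176, 0.121 and -0.074.

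The genes whose profile was most like the mean of the acidic P genes, among 254 genes with at least 2 spots, were LOC542458 (r = 0.764, rho 0.808, 15 spots), RPL19, TCTP (r = 0.708, rho 0.726, 13 spots), gst1 (r = 0.688, rho 0.656) and LOC100125656 (r = 0.668, rho 0.657). TCTP is the translationally controlled tumour protein, and gst1 a glutathione transferase. Without the 2 arrays farthest from the median of that mean, r was from 0.587 (gst1) to 0.793 (LOC542458). The mean profile gives each gene the same weight, and the rpp2b profile was the widest of the 3, with a spread of 1.08, against 0.59 for rpp2 and 0.46 for rpp3. RPL19 had r = 0.0842 with rpp2 alone. Most like rps27 were paa (r = 0.731, rho 0.300), rps6 (0.657, rho 0.712), ubc7 (0.638, rho 0.400), LOC542441 (0.627, rho 0.461) and RPL10 (0.627, rho 0.711). Without S19 and S13, the arrays farthest from its median, paa had 0.0315, ubc7 0.327 and LOC542441 0.370, whereas rps6 had 0.618 and RPL10 0.685. Both of these are ribosomal proteins. Most like rpl30 were DWF1 (r = 0.631, rho 0.229) and expa2, an expansin (r = 0.553, rho 0.274), with 0.274 and 0.257 without the 2 farthest arrays, and then glct1, MRP2 and P0, from 0.451 to 0.378.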

How the data were processed

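Each array was a 2-colour cDNA microarray with Cy3 in channel 1 and Cy5 in channel 2, per the labels. The deposited log ratios were taken to be on the natural log scale. The base was inferred: 106 pairs of repeated values were separated by 2 ln k, with k a whole number between 2 and 10 (tolerance 2e-05), against a mean of 5.33 pairs for shifted separations, while base 2 gave 3 against 4 and base 10 gave 20 against 20.8. No source states the base, and another one would rescale every log2 value and 2-fold count here. How the authors scanned, background-corrected and normalized them was not given in the sources used here. Division by ln 2 gave log2 ratios, and each array was centred on its median. Of 19200 spots, 18303 had a value on all 27 arrays.

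Genes came from the platform's gene table (1607 spots with 1 gene, 23 with several, which were not named), with synonyms from RefSeq's annotation of Zm-B73-REFERENCE-NAM-5.0, which held all 5 members. Runs of 400 spots in table order stand for printing blocks, an inference from the values.

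Members, lists and tests were chosen with earlier results of these data known. The text covers all spots of the members, by number or by count and range, and by rule the 5 genes with the highest r to the acidic P genes, rps27 and rpl30. Pairs of spots were picked by size after their values were seen. Spread and correlation functions were tested on simulated data. Python 3.11.15, pandas 2.3.3 and NumPy 2.4.6 were used. The files hold ratios without signal intensities, and the number of arrays limits the precision.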

Additional observations from a re-analysis of the deposited data

How the results depend on the processing

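A change was counted when a spread moved by over 1 SD of the gene's spots, or a correlation by over its jackknife error over arrays. That error treats the arrays as independent, which arrays of a replication are not, so it serves only as a working limit. With an SD of 2.05 for rpl30 the first limit passes large moves: the rpl30 spread was 1.14 over S16 to S27, against 2.86 over all arrays, and the limit for rpp3 was nearly as wide as its spread. The cause was not tested for any. Without centring, the rpp2b spread was 1.20, the mean r within rpp2 0.198, the mean r between the acidic P genes 0.281 (-0.0283 as reported) and that with rps27 0.368 (0.227 as reported). With arrays rescaled to a common width, r was 0.171 within rpp2, 0.654 for rps27 and 0.126 between the acidic P genes. With each run of 400 spots centred, r was 0.918 for rpp2b and 0.105 within rpp3. Within S1 to S15 the rpp2b spread was 0.896 and r was 0.185 within rpp2, 0.026 within rpp3, 0.133 between the acidic P genes and 0.456 with rps27. Within S16 to S27 the rps27 spread was 0.803, r was -0.600 for rpl30 and the mean with rps27 0.060. The interquartile range, narrower by construction, gave 0.462 for rpp2b and 0.506 for rps27, both counted as changes. It gave 0.479 for rpp2, 0.462 for rpp3 and 0.947 for rpl30, which the wider limits of these genes did not count. Spearman's rho was 0.184 within rpp2 and 0.686 for rps27. In all, 21 planned values were counted as changes. The 89 planned values not counted, some of them named above, stayed within those limits. So did all 13 with spots 7601 to 8000 of S27 missing, an alternative chosen after seeing the data. The jackknife error is built from the values with 1 array left out, so those values are given as ranges only. With 1 array left out, the mean r was from -0.0993 (S1) to 0.0414 (S27) between the acidic P genes, from 0.169 (S13) to 0.302 (S19) between them and rps27, and from -0.0312 (S1) to 0.0697 (S5) between them and rpl30. Within genes it was from 0.112 to 0.162 for rpp2, 0.778 to 0.898 for rpp2b, -0.0468 to 0.000359 for rpp3, 0.727 to 0.856 for rps27 and -0.368 to -0.109 for rpl30. The values hold no signal intensities, so which spots were above background was not assessed. No paired analysis was possible because the labels name a genotype on 1 channel of S1 only and tie no array to a replication.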
